A study of Mus musculus with 16 samples.

Results

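The genes described here are 9 members of the Notch pathway, chosen by name from the 17721 genes of the table: the ligand genes *Dll1*, *Jag1* and *Jag2*, the receptor genes *Notch1*, *Notch2* and *Notch3*, the target genes *Hes1* and *Hey1*, and *Lfng*, which modifies the receptors. All 9 are in the table. The study asked how mammary cells differ with their place in the gland. Single fragments were cut from the pubertal mouse mammary gland at 3 locations, namely 4 from the nipple, 6 from ducts and 6 from terminal end buds (TEBs), the bulbous growing tips of the ducts. Each fragment was digested alone, its cells were sorted into wells of a plate, and the 3′ ends of the transcripts of each cell were read with unique molecular identifiers (UMIs), so that a count stands for 1 captured molecule. The labels give all mice as C57BL/6, and the study describes the donors of all the sequenced fragments as K14-Cre/R26-mTmG mice at 5 weeks of age, so that the 3 locations share genotype and age. K14-Cre recombines in cells with keratin 14 promoter activity and their progeny, and the mTmG reporter changes the colour of a membrane fluorophore there. The labels do not name the mouse of a fragment, so fragments of the same or of different locations may share an animal, and the p-values below measure the spread between fragments.

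Notch signaling works between touching cells. A ligand of the Delta or Jagged family on a sending cell binds a Notch receptor on its neighbour, the receptor is cut by ADAM10 and then by γ-secretase, and the freed intracellular part joins RBPJ in the nucleus to switch on repressors of the Hes and Hey families. Fringe glycosyltransferases such as Lfng add sugars to the receptor and shift its response between Delta and Jagged ligands. In the mammary gland, basal (myoepithelial) cells and luminal cells lie side by side, and Notch activity is known for its part in the luminal fate.

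The fragments gave 1842105 to 5197164 UMIs each, and 1317 of the 1419 deposited cells passed the study's limits on depth, gene number and spike-in RNA. Clusters were built without the 9 genes and without a list of other Notch pathway genes, so that these genes did not define the classes, and were named from marker genes. The classes were basal-like (294 cells), ER+ luminal-like (426), ER- luminal-like (178), fibroblast-like (252), myeloid-like (78) and mural-like cells (19), the last being vessel-wall cells. A further 70 cells were named mast-like by the same rule. Their leading genes also held the endothelial genes *Emcn* and *Cldn5*, and they are not described below. The names are rebuilt ones and may differ from those of the study. For each class, the counts of a fragment were summed where it held at least 5 such cells, which gave 16 basal, 16 ER+, 14 ER- and 13 fibroblast sums. A level below is the number of UMIs of a gene in each 1000000 UMIs of such a sum (CPM). Only the 3′ end of a transcript is counted, so levels are compared within a gene and not between genes. In sums, fewer cells with a transcript and fewer transcripts per cell cannot be told apart. Differences are log2 values from edgeR's quasi-likelihood test with their standard error (SE), and adjusted p-values are Benjamini-Hochberg values over all genes tested, with a threshold of 0.05. Intervals and limits on low counts cover counting error only.

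A few facts of the libraries touch the values that follow. Transcripts may have passed between wells. To estimate their share, marker transcripts found in a cell type that should lack them were taken as carried over. This gave a mean of 3.48% to 11% of the pooled profile over classes and locations. Whether such transcripts did come from other wells was not tested, and the expected counts below rest on it. A basal and a luminal keratin, *Krt5* and *Krt18*, were both counted at 10 UMIs or more in 168 cells. These made up 59.8% of the basal-like cells in nipple, 77.4% in duct and 23.2% in TEB. Basal-like cells came from different clusters by location: 1 cluster led by *Cnn1* and *Krt14* held 96 of the 97 nipple and all 115 duct cells, and another led by *A230065H16Rik*, *Serpinb11* and *Fabp5* held 81 of the 82 TEB cells. The 9 basal markers were all detected at each location, and their summed level was 17373 to 19796 CPM in nipple, 20404 to 26065 in duct and 4428 to 8180 in TEB. Cluster and location therefore cannot be told apart in basal-like cells.

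The ligand genes were highest in basal-like cells. *Dll1*, a Delta ligand gene on chromosome 17 (GRCm38, chr17:15367354-15376872, minus strand), had a lowest level of 22.4 CPM, a median of 81.7 and a highest of 192 in the 16 basal sums. In the 16 ER+ sums it ran from 0 to 5.17 CPM with a median of 0.317, and in the 14 ER- sums from 0 to 16.8 with a median of 0. The basal and luminal values did not overlap, and each fragment had more *Dll1* in its basal cells than in its ER+ cells (16 of 16), its ER- cells (14 of 14) and its fibroblasts (13 of 13). Basal-like cells carried 719 of the 750 epithelial *Dll1* UMIs. The difference from ER+ cells was 6.19 (SE 0.59, edgeR adjusted p = 4.88e-14) and that from ER- cells 5.27 (SE 0.63, adjusted p = 3.9e-10). RNA from other wells was expected to give 25.8 *Dll1* UMIs in the ER+ sums, where 20 were counted, and 6.63 in the ER- sums, where 11 were counted. In the TEB sums of ER- cells 7 were counted and 0.701 expected, and 5 of these 7 lay in 1 cell. In fibroblast-like cells, 18 of 28 UMIs lay in 1 cell of TEB fragment 31.

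*Jag1*, a Jagged ligand gene (chr2:137081456-137116644, minus strand), was also highest in basal-like cells but was counted in every class. Its level ran from 27.3 to 312 CPM with a median of 95.4 in basal sums, and from 2.67 to 44.4 with a median of 13.3 in ER+ sums. In ER- sums it ran from 0 to 36.9 CPM (median 6.48), and in fibroblast sums from 0 to 79.8 (median 25.8). Ranges of basal and luminal sums met at their ends, yet within a fragment basal cells were higher than ER+ cells in 16 of 16 and than ER- cells in 14 of 14. They were higher than fibroblasts in 11 of 13. *Jag1* was higher in basal than in ER+ cells by 2.71 (SE 0.42, edgeR adjusted p = 2.05e-07) and than in ER- cells by 3.92 (SE 0.49, adjusted p = 1.29e-09). RNA from other wells was expected to give 23% of the ER+ counts of *Jag1*, against 3.59% of the basal ones.

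*Jag2*, the other Jagged gene (chr12:112907819-112929776, minus strand), was at 0 in most luminal and fibroblast sums. Basal sums held 4.58 to 58.7 CPM with a median of 23.7, and no basal sum was at 0. In ER+ sums 11 of 16 were at 0, and 11 of the 17 UMIs came from duct fragment 51. In ER- sums 13 of 14 were at 0, with 1 UMI in all. The ratio of the pooled rates in basal and ER- cells was 172, with an exact 95% interval of 30.6 to 6819, and *Jag2* was called for that contrast (edgeR adjusted p = 1.2e-08). Against ER+ cells the difference was 5.19 (SE 0.69, adjusted p = 3.49e-09).

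**Figure D1:**
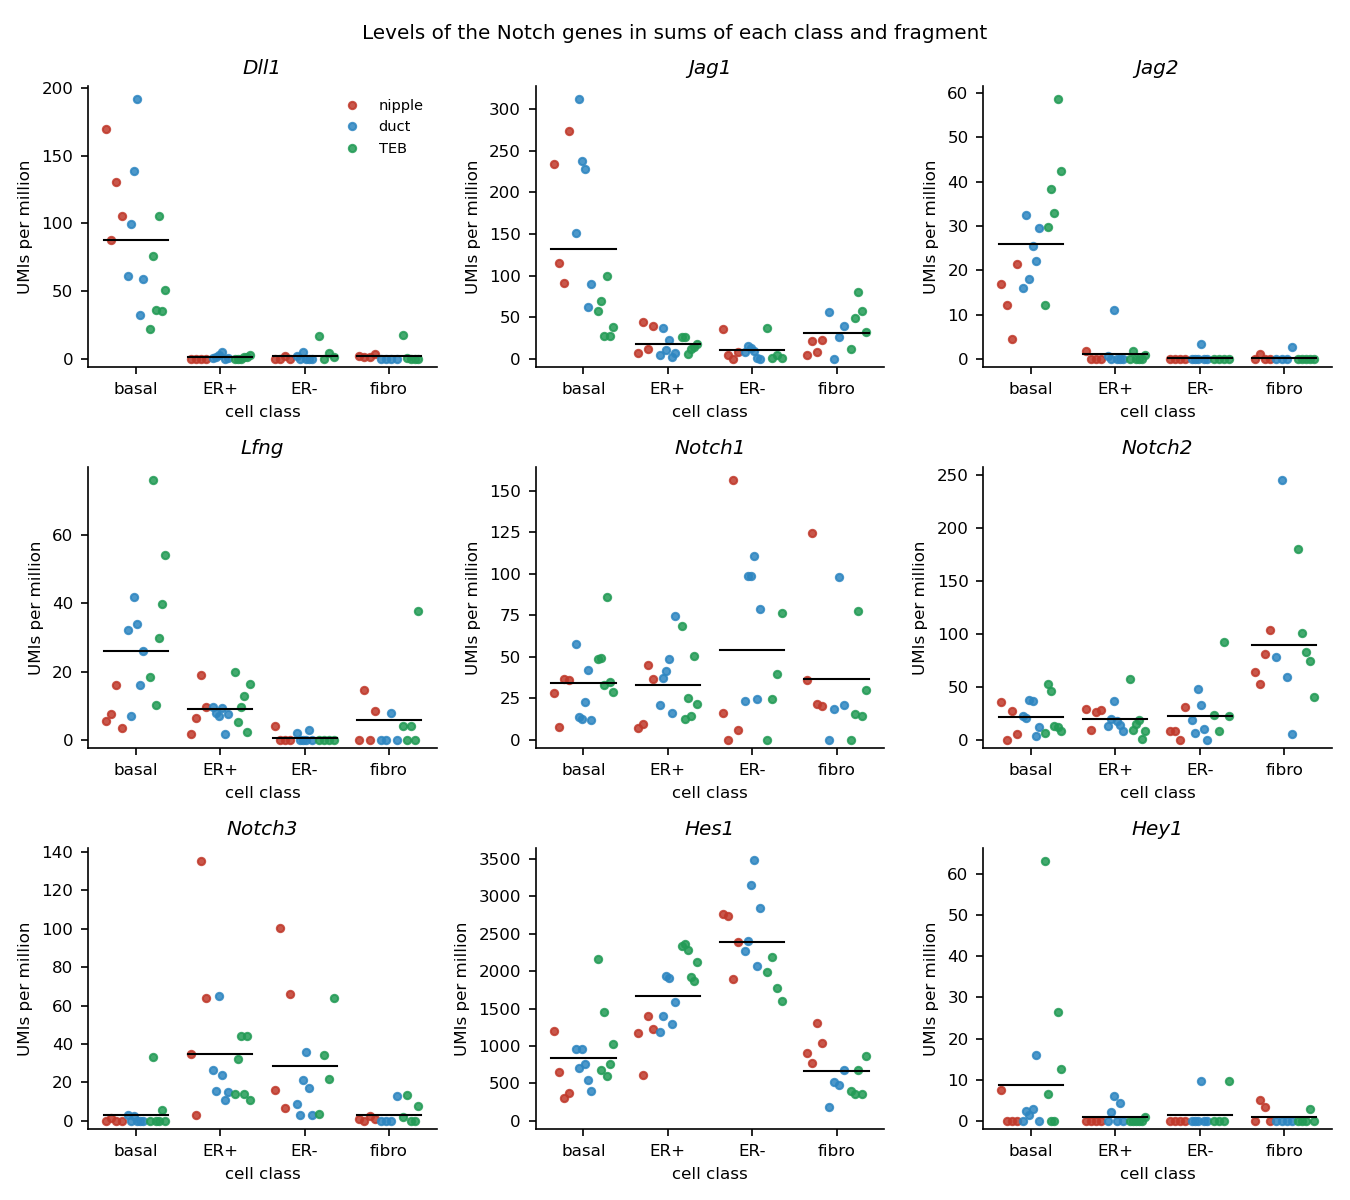
Level (CPM, vertical axis) of the 9 Notch genes in basal-like, ER+ luminal-like, ER- luminal-like and fibroblast-like sums (horizontal axis), with 1 dot per fragment coloured by location and a line at the mean. The dots for *Dll1* and *Jag2* lie near 0 outside basal-like cells, and the mean of *Hes1* was 847 CPM in basal, 1666 in ER+, 2397 in ER- and 661 in fibroblast-like sums.

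Over the 9 genes, 6 were called between basal-like and ER+ cells (4 higher and 2 lower in basal cells), where 40.3% of all genes tested were called. Between basal-like and ER- cells 6 were called (4 higher, 2 lower), where the share over all genes was 25.0%. DESeq2 called 5 and 6 of the 9. The median difference over the 9 genes was 1.17 between basal and ER+ cells, where that of all genes was -0.07, and 2.04 between basal and ER- cells, where that of all genes was 0.09. The genes higher in basal cells than in ER+ cells were the 3 ligand genes and *Hey1*, and those higher than in ER- cells the 3 ligand genes and *Lfng*. *Notch3* and *Hes1* were lower in basal cells in both contrasts.

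*Lfng* encodes Lunatic fringe, a glycosyltransferase of the Golgi that extends O-linked fucose on Notch receptors (chr5:140607320-140615545, plus strand). It was higher in ER+ than in ER- luminal cells. Its level was 3.58 to 76 CPM in basal sums (median 22.2) and 1.78 to 19.9 in ER+ sums (median 8.54), which overlapped. In ER- sums 11 of 14 were at 0 and the highest was 4.01 CPM. *Lfng* was higher in ER+ than in ER- cells by 3.59 (SE 0.83, edgeR adjusted p = 0.000613), in 12 of 14 fragments, and higher in basal than in ER- cells by 4.76 (SE 0.83, adjusted p = 5.73e-06), in 14 of 14. Between basal and ER+ cells the difference of 1.17 (SE 0.60, adjusted p = 0.113) did not pass. The 4 UMIs in the ER- sums compare with 4.23 expected from other wells. *Lfng* was the 1 of the 9 genes called between the luminal classes, where 23.3% of all genes were called, and DESeq2 called 3.

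The promoters of 7 of the 9 genes were in the RefSeq table (GRCm38.p6, 300 bases each, from 250 before to 50 after a start, 8 promoters in all), and *Hes1* and *Hey1* had none there. They were searched on both strands for TGGGAA, the core of the sequence bound by RBPJ, which 25.6% of the 32851 promoters of the table hold. *Lfng* alone among the 7 had a match, and its promoter held 2 matches. They are shown on the plus strand, with the match in capitals, in reverse complement in the first window, at 135 to 130 bases before the start (chr5:140607194-140607223), and as spelled in the second, at 108 to 103 bases before it (chr5:140607221-140607250).
Lfng first window: ccagctgggtggTTCCCAgccccttgtccg
Lfng second window: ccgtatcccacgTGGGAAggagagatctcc
Matches in *Lfng* alone are not more than the share of 25.6% over all promoters gives for 7 genes. A match describes the letters only, and no binding was measured here. Whether these matches bear on the *Lfng* levels was not tested.

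Of the receptor genes, *Notch1* and *Notch2* did not pass between epithelial classes, and *Notch3* was luminal. *Notch1* (chr2:26457903-26516663, minus strand) ran from 7.67 to 85.9 CPM in basal sums (median 33.9), from 7.36 to 74.7 in ER+ sums (median 31) and from 0 to 157 in ER- sums (median 32.2). The ranges lay over each other. The basal value differed from the ER+ one by 0.04 (SE 0.48, edgeR adjusted p = 0.955), from the ER- one by -0.39 (SE 0.54, adjusted p = 0.666), and the fibroblast value from the epithelial average by 0.10 (SE 0.48, adjusted p = 0.897). A p that misses the threshold does not show equal levels, and the spread between fragments left an SE near 0.5.

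*Notch2* (chr3:98013527-98150361, plus strand) was higher in fibroblast-like than in epithelial cells. Its level was 5.2 to 246 CPM in fibroblast sums (median 78.1), against 0 to 52.9 in basal (median 17.0), 1.2 to 58.0 in ER+ (median 16.3) and 0 to 92.5 in ER- sums (median 14.7). The fibroblast range took in most of the epithelial ones, but within a fragment fibroblasts were higher than basal cells in 12 of 13, than ER+ cells in 12 of 13 and than ER- cells in 11 of 12. The difference from the average of the 3 epithelial classes was 2.10 (SE 0.33, edgeR adjusted p = 1.76e-07). Fibroblasts were not tested against each epithelial class singly.

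*Notch3* (chr17:32120820-32166852, minus strand) was counted in both luminal classes. It ran from 3.17 to 135 CPM in ER+ sums (median 25.1) and from 2.91 to 100 in ER- sums (median 19.3), with no sum at 0. In basal sums 11 of 16 were at 0, and 10 of the 21 basal UMIs lay in 1 cell of TEB fragment 32. Basal cells were below ER+ cells by a log2 difference of -4.56 (SE 0.67, edgeR adjusted p = 4.85e-08), in 15 of 16 fragments, and below ER- cells by -4.13 (SE 0.70, adjusted p = 2.82e-06), in 13 of 14. RNA from other wells was expected to give 16.4 UMIs over all basal sums, where 21 were counted. By location, 17 were counted and 5.22 expected in TEB, 3 and 7.54 in duct, and 1 and 3.62 in nipple. The luminal classes differed by 0.43 (SE 0.58, adjusted p = 0.653). Fibroblast-like cells were 2.31 lower than the epithelial average (log2 difference -2.31, SE 0.67, adjusted p = 0.00293).

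*Hes1*, a transcriptional repressor and a direct Notch target (chr16:30064384-30067796, plus strand), was counted in every sum and was higher in luminal than in basal cells. Its lowest, median and highest levels were 303, 736 and 2158 CPM in basal sums, and 618, 1729 and 2367 in ER+ sums. They were 1599, 2332 and 3482 CPM in ER- sums and 190, 680 and 1309 in fibroblast sums. The fibroblast and ER- ranges did not overlap, and the others did. Basal cells were below ER+ cells in 14 of 16 fragments (log2 difference -1.20, SE 0.22, edgeR adjusted p = 2.72e-05) and below ER- cells in 14 of 14 (-1.69, SE 0.24, adjusted p = 3.31e-07). ER- cells were above ER+ cells in 10 of 14 fragments, a difference that did not pass (ER+ minus ER- -0.49, SE 0.23, adjusted p = 0.131). Fibroblasts lay below the epithelial average (-1.09, SE 0.22, adjusted p = 5.99e-05). RNA from other wells was expected to give 16.0% of the basal *Hes1* counts. Immediate early genes, which tissue digestion can raise, were also higher in the luminal classes. Their summed level had a median of 3488 CPM in basal, 5906 in ER+, 5385 in ER- and 4005 in fibroblast sums. Their part in the *Hes1* differences between classes was not tested.

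*Hey1*, a repressor of the Hey family (chr3:8663359-8667256, minus strand), was sparse. In basal sums it ran from 0 to 63.2 CPM with a median of 1.85, and 7 of 16 were at 0. TEB fragment 31 gave 31 of its 93 basal UMIs and TEB fragment 42 gave 32. In ER+ sums 12 of 16 were at 0 and in ER- sums 12 of 14. *Hey1* was higher in basal than in ER+ cells by 2.39 (SE 0.98, edgeR adjusted p = 0.0460), a call that rested on few fragments, since basal cells were higher in 8, lower in 1 and equal in 7. It did not pass in 6 of 25 alternatives, namely DESeq2 (adjusted p = 0.211), at least 10 cells per sum (0.102), no filter on low counts (0.0536), and without duct fragment 52 (0.0616), nipple fragment 21 (0.0850) or TEB fragment 32 (0.0861).

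**Figure D2:**
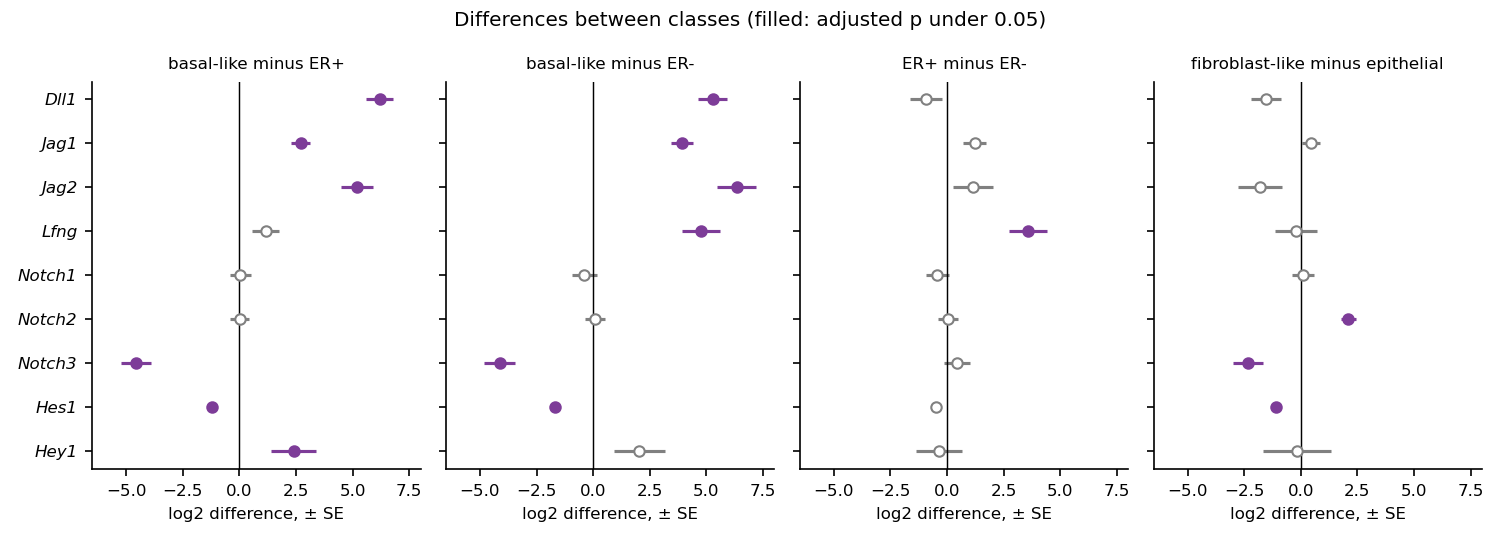
Log2 difference (horizontal axis, points with bars of 1 SE) of each of the 9 Notch genes (vertical axis) in 4 class contrasts, with filled points where the adjusted p was under 0.05. The ligand genes lie far to the basal side (*Dll1* 6.19 against ER+ cells), *Notch3* lies on the luminal side (-4.56), and *Notch2* is the called gene on the fibroblast side (2.10).

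Between fibroblast-like and epithelial cells, 3 of the 9 genes were called (*Notch2* higher, *Notch3* and *Hes1* lower), beside 47.6% of all genes. DESeq2 called 4. The ligand genes did not pass there: *Dll1* differed by -1.54 (SE 0.67, edgeR adjusted p = 0.0510), *Jag1* by 0.45 (SE 0.39, adjusted p = 0.361) and *Jag2* by -1.78 (SE 0.97, adjusted p = 0.128). The epithelial average in this contrast holds the high basal and the low luminal values of these genes together.

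Shares of single cells were also counted. Since depth differed between classes, each cell was thinned to 5000 UMIs before cells with at least 1 UMI were counted. After thinning, *Dll1* was found in 26.2% of basal-like cells (Wilson 95% interval 21.5% to 31.5%; 49.0% unthinned), in 0.235% of ER+ and in 2.82% of ER- cells. *Jag1* was found in 34% of basal, 6.34% of ER+ and 3.39% of ER- cells, and *Jag2* in 7.48% of basal and in 0 of 177 ER- cells. The median depth was 25194 UMIs in basal, 36259 in ER+ and 26199 in ER- cells, so the low luminal shares came with an equal or greater depth. *Notch3* was found in 0.340% of basal, 9.15% of ER+ and 10.7% of ER- cells after thinning. *Hes1* was found in 96.5% of ER+, 95.5% of ER-, 75.8% of fibroblast-like and 72.4% of basal cells. *Hey1* was found in at most 1.70% of the cells of any class, with 1.13% in ER- and 0.794% in fibroblast-like cells, where most sums were at 0.

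Myeloid-like and mural-like cells were too few per fragment for a test and are given as pooled values, with exact Poisson intervals and no test. *Lfng* reached 64.8 CPM (53.2 to 78.1) in myeloid-like cells, and 23.1% of these cells held it after thinning, against 10.9% of basal-like ones. Myeloid-like cells also held *Notch1* at 133 CPM (116 to 152) and *Notch2* at 173 (153 to 193). Their *Jag1* stood at 55.3 CPM (44.7 to 67.7), with 31.9% of its 94 UMIs in 1 cell. *Notch3*, known as the receptor of vessel-wall cells, reached 257 CPM (201 to 323) in the 19 mural-like cells, where 57.9% of cells held it after thinning and 20 of 73 UMIs lay in 1 cell. *Hes1* was lowest in myeloid-like cells among the classes described here by share of thinned cells, at 39.7%. RNA from other wells was expected to give 96.7% of the 169 *Hes1* UMIs in the myeloid-like sums of at least 5 cells.

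**Figure D3:**
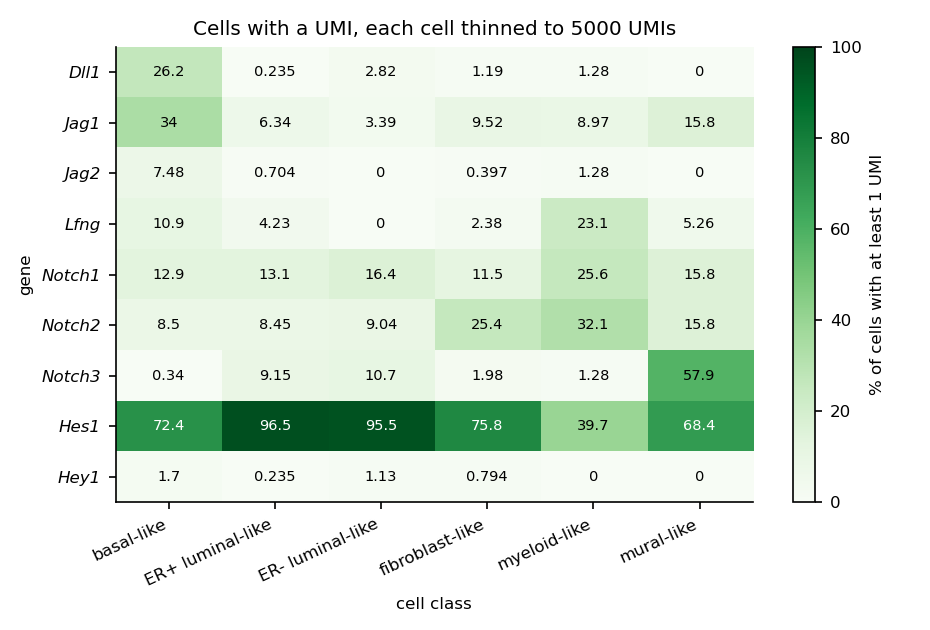
Share of cells (percent, colour and printed value) with at least 1 UMI of each of the 9 Notch genes (rows) in 6 classes (columns, mast-like cells left out) after thinning each cell to 5000 UMIs. The highest ligand shares are in basal-like cells (*Jag1* 34%), *Notch3* peaks in mural-like cells (57.9%) and *Hes1* is above 95% in both luminal classes.

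Across the 3 locations, basal-like cells differed in the ligand genes *Jag1* and *Dll1*. Nipple fragments 21, 22, 23 and 24 had basal *Jag1* levels of 234, 115, 91.7 and 274 CPM. The 6 duct fragments ran from 62.3 to 312 CPM with a median of 190, and the 6 TEB fragments from 27.3 to 99.1 with a median of 47.9. TEB values were the low ones, although the highest TEB value lay within the duct and nipple ranges. *Jag1* was lower in TEB than in nipple (nipple minus TEB 1.96, SE 0.40, edgeR adjusted p = 0.000422) and than in duct (duct minus TEB 1.97, SE 0.37, adjusted p = 0.000236), and the test over the 3 locations gave an adjusted p of 0.000246. Nipple and duct differed by -0.00 (SE 0.38, adjusted p = 0.999).

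*Dll1* had its highest mean in nipple basal cells (123 CPM, SD 35.6, n = 4), at 170, 87.4, 131 and 106 CPM in fragments 21 to 24. Duct fragments ran from 32.1 to 192 CPM (median 80.3) and TEB fragments from 22.4 to 106 (median 43.5), and all ranges overlapped. The difference between nipple and TEB was 1.38 (SE 0.42, edgeR adjusted p = 0.0185), and that over the 3 locations had an adjusted p of 0.0376. The call over the 3 locations was lost without any 1 of 7 fragments (duct 51, nipple 21 and 23, TEB 31, 33, 42 and 43). It was also lost with at least 10 cells per sum, with thinned cells, and without cells of both keratins. The median depth of basal-like cells was 21458 UMIs in nipple, 23039 in duct and 43900.5 in TEB. For *Dll1*, neither duct minus TEB (1.02, SE 0.39, edgeR adjusted p = 0.0948) nor nipple minus duct (0.36, SE 0.42, adjusted p = 0.74) passed. Without nipple fragment 21 the nipple and TEB difference was 1.22 and no longer passed (adjusted p = 0.0687). Without cells that held both keratins it was 0.65 (adjusted p = 0.679), a fit that had 2 duct fragments left, and the *Jag1* difference between duct and TEB was then 1.38 (adjusted p = 0.335).

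*Lfng* ran the other way. Its basal levels were 5.66, 7.67, 16.0 and 3.58 CPM in nipple fragments 21 to 24, with 6.94 to 41.7 over duct fragments (median 29.1) and 10.2 to 76 over TEB fragments (median 34.7). Nipple values were low, with the highest of them above the lowest of the other locations. Nipple was below TEB by a log2 difference of -2.04 (SE 0.74, edgeR adjusted p = 0.0492), just past the threshold, while the test over the 3 locations did not pass (adjusted p = 0.115). Nipple basal sums held 17 UMIs of *Lfng* in all. The call was lost in 17 of 27 alternatives, with values from -2.54 to -1.45, and without nipple fragment 24 it was -1.79 (adjusted p = 0.135).

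*Jag2* had basal levels of 17.0, 12.3, 4.58 and 21.5 CPM in nipple, with 16.1 to 32.4 over duct fragments (median 23.7) and 12.2 to 58.7 over TEB fragments (median 35.7). The differences did not pass (nipple minus TEB -1.20, SE 0.64, edgeR adjusted p = 0.21, over the 3 locations 0.382). *Notch1* (adjusted p = 0.617 over the 3 locations), *Notch2* (0.953) and *Hes1* (0.498) did not pass in basal-like cells either. *Hey1* and *Notch3* were too sparse there to be tested. The basal *Hey1* values were 7.54, 0, 0 and 0 CPM in nipple, at most 16.1 in duct and 0 to 63.2 in TEB (median 9.58).

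**Figure D4:**
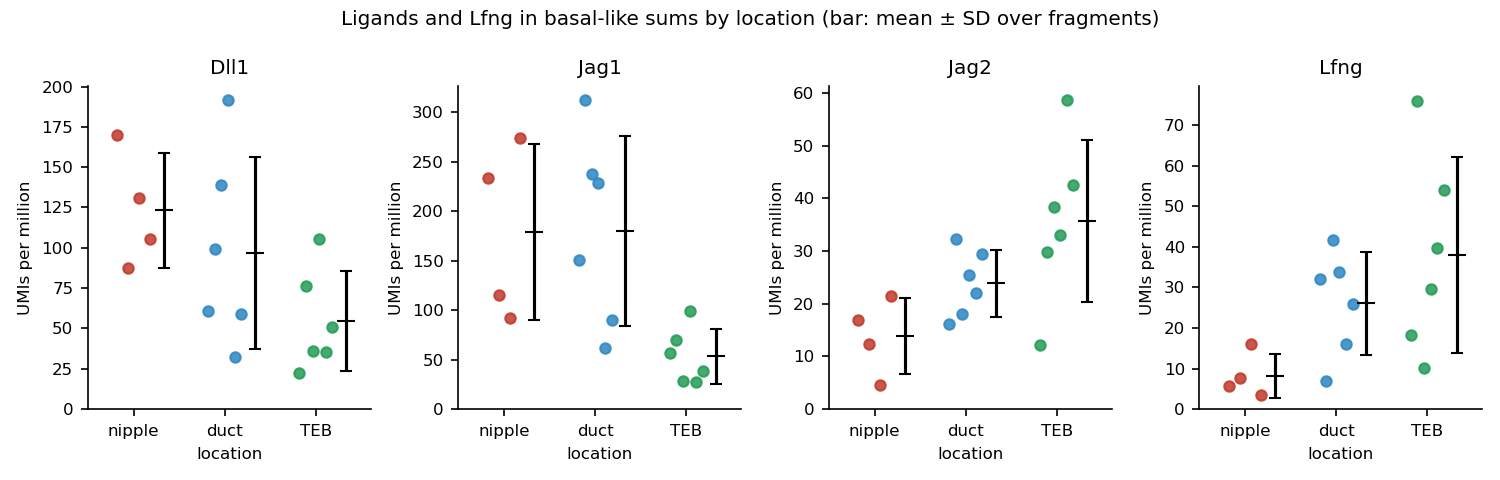
Level (CPM, vertical axis) of *Dll1*, *Jag1*, *Jag2* and *Lfng* in basal-like sums of nipple, duct and TEB fragments (horizontal axis), with 1 dot per fragment, a line at the mean and bars of 1 SD. The TEB values of *Jag1* sit between 27.3 and 99.1 CPM and the nipple values of *Lfng* between 3.58 and 16.0, and all pairs of locations overlap.

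Over the 7 Notch genes tested in basal-like cells, 2 were called across locations, where 20.6% of all genes were called, and DESeq2 called 3, with *Lfng* added. Between nipple and TEB 3 were called (2 higher and 1 lower in nipple, DESeq2 3), where the share was 18.7%. Between duct and TEB 1 was called (DESeq2 1), beside 10.4% of all genes. Between nipple and duct edgeR called 0, beside 6.29% of all genes, with 1 at an unadjusted p under 0.05 and 0 called by DESeq2. The counts across locations, between duct and TEB and between nipple and duct are near what these shares give for 7 genes. Other markers moved with the ligand genes. *Krt5* and *Krt14* summed to 6619 to 7632 CPM in nipple, 5379 to 6768 in duct and 872 to 2026 in TEB basal cells. Luminal keratins (*Krt8*, *Krt18* and *Krt19*) summed to 3229 to 4445 CPM in nipple, 5426 to 7262 in duct and 1725 to 2548 in TEB, and the fibroblast markers, of which 7 of 7 were detected, to 928 to 1875, 263 to 456 and 231 to 489 CPM. Immediate early genes, which tissue digestion can raise, summed to 3115 to 3481 CPM in nipple, 2581 to 4966 in duct and 3505 to 5947 in TEB, and 3 of 14 were called between nipple and TEB (2 higher and 1 lower in nipple). The part of these markers in the differences of *Jag1*, *Dll1* and *Lfng* was not tested.

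In ER+ luminal-like cells, *Hes1* fell from TEB to nipple. Its levels were 1181, 618, 1406 and 1233 CPM in nipple fragments 21 to 24. Duct fragments ran from 1190 to 1941 CPM around a median of 1489, and TEB fragments from 1874 to 2367 around 2206. The nipple and TEB ranges did not overlap, and duct lay between them. The difference was -0.94 between nipple and TEB (SE 0.16, edgeR adjusted p = 0.000408), and the test over the 3 locations gave an adjusted p of 0.00114. The steps from nipple to duct (-0.51, SE 0.16, adjusted p = 0.106) and from duct to TEB (-0.43, SE 0.14, adjusted p = 0.147) did not pass alone. The call between nipple and TEB was kept in 29 of 29 alternatives, with differences from -1.09 to -0.77.

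The other tested genes did not pass in ER+ cells. *Notch3* had its highest mean in nipple (59.3 CPM), with fragments at 35.0, 3.17, 135 and 63.8, beside 10.7 to 64.8 in duct and 10.7 to 44.4 in TEB. Its nipple fragments held both the lowest and the highest ER+ value, and the difference did not pass (nipple minus TEB 1.20, SE 0.57, edgeR adjusted p = 0.248). Over the 3 locations the adjusted p was 0.779 for *Jag1*, 0.762 for *Notch1*, 0.937 for *Notch2*, 0.307 for *Notch3* and 0.891 for *Lfng*. Of 6 Notch genes tested, 1 was called across locations, where 5.56% of all genes were called, and 1 between nipple and TEB, where 5.57% were. Between nipple and duct edgeR called 0 beside 2.0% of all genes (2 at an unadjusted p under 0.05), and between duct and TEB 0 beside 1.64% (1 at an unadjusted p under 0.05), and DESeq2 called 0 in both.

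Other values moved with ER+ *Hes1*. The class was made of 2 clusters, one led by *Sprr1a* and *Pcp4* (232 cells, 16 of them from nipple, 103 from duct and 113 from TEB) and one led by *Krt4* and *Wfdc12* (194 cells, 27, 108 and 59). In 9 of 12 fragments with sums of both, *Hes1* was higher in the first (mean 1893 CPM, SD 547, against 1601, SD 445). Fibroblast markers, 7 of 7 detected, summed to 898 to 2220 CPM in the nipple ER+ sums, 208 to 598 in duct and 168 to 370 in TEB. *Krt5* and *Krt14* summed to 51.5 to 442 CPM in nipple, 33 to 288 in duct and 7.06 to 25.7 in TEB. Immediate early genes summed to 5651 to 8308 CPM in nipple, 5324 to 6846 in duct and 5339 to 6859 in TEB, and 2 of 14 were called between nipple and TEB, both higher in nipple. Their part in the *Hes1* difference was not tested. The nipple ER+ sums rest on 43 cells.

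In ER- luminal-like cells *Hes1* took another order. Its levels were 2759, 2737, 1893 and 2390 CPM in nipple fragments 21 to 24, 2069 to 3482 in duct (median 2627), and 1985, 2189, 1779 and 1599 in TEB fragments 32, 33, 34 and 42. TEB values were the low ones, with overlap. No location difference passed: nipple minus TEB was 0.50 (SE 0.17, edgeR adjusted p = 0.101), duct minus TEB 0.57 (SE 0.16, adjusted p = 0.0735), nipple minus duct -0.07 (SE 0.16, adjusted p = 0.93), and the 3 locations together gave 0.0752. The difference between the luminal classes in how *Hes1* varied with location was tested directly, by a term added after the data were seen. This location-by-class term was called (edgeR adjusted p = 0.00012). That fit had no fragment term, so its p takes the ER+ and ER- sums of the same fragment as independent. *Hes1* was the 1 of 5 Notch genes called there, beside 1.94% of all genes, and DESeq2 also called 1. The term was not called when sums needed at least 10 cells. Basal markers moved with location in the ER- class too: *Krt5* and *Krt14* summed to 1509 to 3184 CPM in nipple, 32 to 439 in duct and 4.13 to 101 in TEB. Fibroblast markers, 7 of 7 detected, summed to 906 to 1527 CPM in nipple, 128 to 344 in duct and 119 to 289 in TEB. Their part in the *Hes1* values was not tested.

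Of the 4 Notch genes tested across locations in ER- cells, edgeR called 0, beside 4.10% of all genes (1 at an unadjusted p under 0.05, DESeq2 0). Between duct and TEB edgeR called 0, beside 1.14% of all genes (1 at an unadjusted p under 0.05), and DESeq2 called 1, *Hes1*. *Notch1* (adjusted p = 0.821), *Notch2* (0.81) and *Notch3* (0.528) did not pass. *Notch3* held 16.0, 100, 6.91 and 66.0 CPM in nipple, 2.91 to 35.8 in duct and 3.36 to 63.9 in TEB, so that its nipple fragments spread as widely as in ER+ cells.

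**Figure D5:**
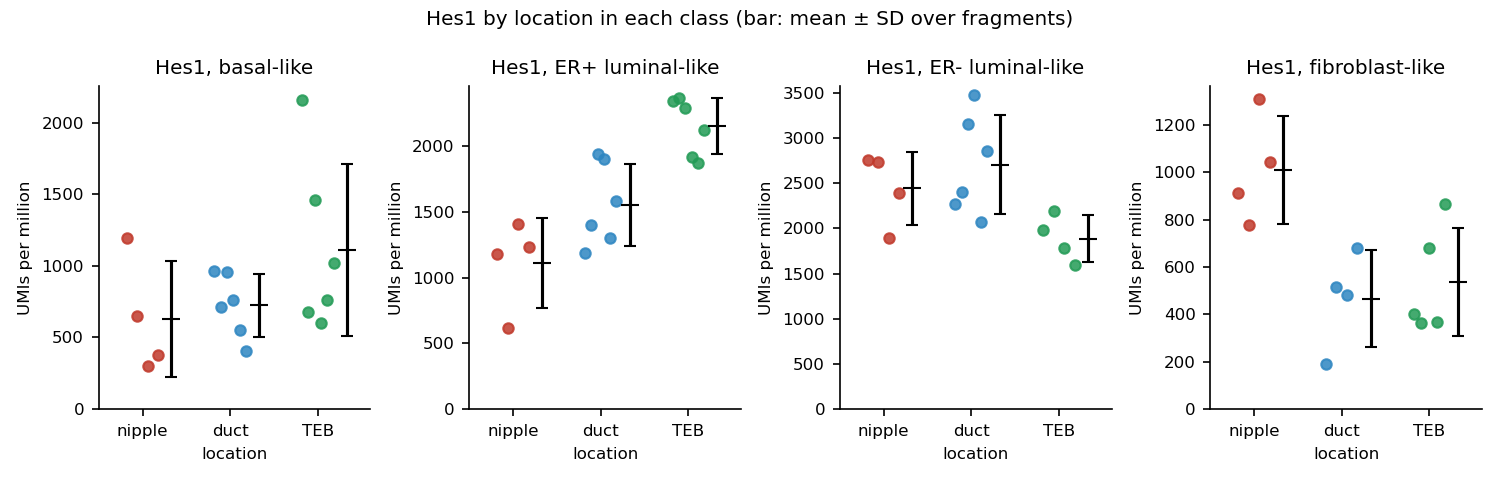
Level (CPM, vertical axis) of *Hes1* in nipple, duct and TEB fragments (horizontal axis) for basal-like, ER+ luminal-like, ER- luminal-like and fibroblast-like sums, with 1 dot per fragment, a line at the mean and bars of 1 SD. In ER+ cells the nipple values (618 to 1406 CPM) lie below the TEB values (1874 to 2367), whereas in ER- cells the TEB values (1599 to 2189) are the low ones.

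In fibroblast-like cells *Hes1* was highest in nipple, at 911, 776, 1309 and 1045 CPM in fragments 21 to 24. The 4 duct sums (fragments 32, 52, 61 and 62) held 190, 516, 480 and 682 CPM, and the 5 TEB sums (31, 32, 33, 34 and 42) held 404, 362, 680, 366 and 867. Nipple and duct did not overlap, yet neither nipple minus duct (1.10, SE 0.33, edgeR adjusted p = 0.19) nor nipple minus TEB (1.04, SE 0.30, adjusted p = 0.093) passed, and the test over locations gave 0.0834. Of 4 Notch genes tested over the locations edgeR called 0, beside 1.70% of all genes (1 at an unadjusted p under 0.05, DESeq2 0). *Jag1* (adjusted p = 0.599), *Notch1* (0.89) and *Notch2* (0.982) did not pass. The fibroblasts of each location came mostly from different clusters. A cluster led by *Cthrc1* and *Penk* held 86 of the 116 nipple cells, and one led by *Pi16* and *Akr1c18* held 64 of the 98 TEB cells. One led by *Myoc* and *Scg3* held 28 of the 38 duct cells, but was shared by all locations, with 29 nipple and 16 TEB cells.

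The receptor genes are given for these fibroblast clusters as pooled values, with no test. The cluster led by *Pi16* and *Akr1c18* held 0 *Notch1* UMIs in 2794879, which allows up to 1.07 CPM. The other 3 fibroblast clusters held *Notch1* at 32.1, 80.7 and 86.4 CPM. The same *Pi16* cluster had the highest *Notch2*, at 136 CPM, beside 60.4, 84.9 and 65.7 in the others.

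The location-by-class term was also tested for basal against luminal cells, again without a fragment term. Between basal and ER+ cells edgeR called 0 of 8 Notch genes, beside 8.32% of all genes, with 2 at an unadjusted p under 0.05 and 0 called by DESeq2. The smallest adjusted p was that of *Jag1* (0.0775), followed by *Notch3* (0.19) and *Dll1* (0.251). Between basal and ER- cells edgeR called 0 of 8, beside 3.62% of all genes, again with 2 at an unadjusted p under 0.05 and 0 by DESeq2 (*Dll1* adjusted p = 0.243, *Hes1* 0.312 and *Jag1* 0.463). So the location differences of *Jag1* and *Dll1* in basal cells were not shown to differ from those in luminal cells.

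Of the other Notch pathway genes, 58 of 60 listed were in the table and 46 were tested between classes. Between basal and ER+ cells 15 were called (5 higher and 10 lower in basal), beside 40.3% of all genes, with a median difference of -0.15 beside -0.07 over all genes. Between basal and ER- cells 12 were called (8 higher, 4 lower), beside 25.0% of all genes (median 0.15 beside 0.09). Between ER+ and ER- cells 12 were called (10 higher in ER+, 2 lower), beside 23.3% (median 0.16 beside 0.19). Between fibroblasts and epithelium 20 were called (12 higher, 8 lower), beside 47.6% (median 0.44 beside -0.01). These counts are near or below what the shares over all genes give for 46 genes. *Adam10*, the protease that makes the first cut of a bound receptor, had a mean of 191 CPM in ER+ cells, 38.9 in ER- cells and 36.4 in basal cells. It was higher in ER+ than in ER- cells by 2.43 (SE 0.32, edgeR adjusted p = 6.12e-09). *Furin*, which processes receptors before they reach the surface, was higher in ER+ than in ER- cells by 2.11 (adjusted p = 2.98e-05). *Dlk2*, a Delta-like gene without the DSL domain of the ligands, shared the basal pattern, with a mean of 34.6 CPM in basal and 0.189 in ER+ cells (difference 6.28, SE 0.68, adjusted p = 7.76e-12). *Numbl*, a relative of the Notch inhibitor *Numb*, was highest in fibroblasts (73.4 CPM against 11.6 over the epithelial classes, difference 3.93, SE 0.45, adjusted p = 1.52e-11), and so was *Dlk1* (30.8 against 0.149, difference 6.01, adjusted p = 1.25e-10).

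Across locations, 2 of 32 of these other genes were called in basal cells (*Cir1* and *Dlk2*), beside 20.6% of all genes, 1 of 37 in ER+ cells (*Furin*), beside 5.56%, and 1 of 39 in fibroblasts (*Dlk1*), beside 1.70%. In ER- cells edgeR called 0 of 20, beside 4.10% of all genes, and 2 had an unadjusted p under 0.05. *Furin* was higher in nipple ER+ cells, with a mean of 194 CPM beside 37.2 in duct and 34.2 in TEB (nipple minus TEB 2.49, SE 0.34, edgeR adjusted p = 5.63e-06). *Cir1*, a corepressor that binds RBPJ, was low in duct basal cells, at 8.03 CPM beside 36.2 in nipple and 96.1 in TEB (duct minus TEB -3.43, SE 0.53, adjusted p = 1.35e-05). *Dlk1* in fibroblasts averaged 58.6 CPM in nipple, 41.1 in duct and 0.388 in TEB (nipple minus TEB 6.52, SE 1.02, adjusted p = 0.000584). In nipple against TEB basal cells 3 of 32 were called, beside 18.7% of all genes, a smaller share than over all genes. *Ep300*, a coactivator of the nuclear complex, was higher in nipple (2.52, edgeR adjusted p = 0.0226), as was *Numb* (1.56, adjusted p = 0.0339). *Ctbp2*, a corepressor, was lower (-1.33, adjusted p = 0.0352).

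The genes whose levels were most like those of a member were found over the 46 epithelial sums among 6018 genes, as a description, by Pearson's r of log2 levels. Sums of a fragment share a library and sums of a class share a cell type, so a high r mostly tells which class a gene follows. *Dll1* was nearest to *Cxcl14* (0.917), *Moxd1* (0.907) and *Col14a1* (0.905). *Jag1* was nearest to *Cxcl12* (0.846), *Ptrf* (0.815) and *Stat3* (0.801), and *Jag2* to *Bmp7* (0.922), *Col4a1* (0.914) and *Vcan* (0.906). *Lfng* was nearest to *Cnn3* (0.823), *1700023F06Rik* (0.791) and *Fermt1* (0.780). On the luminal side, *Notch3* was nearest to *Mboat1* (0.783), *Cldn3* (0.778) and *Atp6v1g1* (0.775), and *Hes1* to the epithelial factor gene *Ehf* (0.829), *Smagp* (0.817) and the tight junction gene *Cldn7* (0.805). *Notch1*, *Notch2* and *Hey1* had no close match, with highest values of 0.656 (*Pih1d1*), 0.580 (*Polr2b*) and 0.576 (*Sbspon*).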

How the data were processed

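The authors trimmed reads with Trim Galore, used UMI-tools for cell barcodes and UMIs, aligned uniquely to mm10 with STAR, counted with featureCounts and deposited raw UMI counts per gene and cell. Versions are not given in the sources used here. The methods give the number of cells found in the table, and the study's results section a larger one.

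Cells with at most 5% ERCC RNA, 5000 to 120000 UMIs and 200 to 6000 genes were kept and grouped in R 4.3.3 with Seurat 5.3.0 (2000 variable genes, 14 components, resolution 0.5, with regression of spike-in share, cell cycle and gene number). No doublet caller was run. Counts were summed per fragment and class and tested with edgeR 4.0.16 (TMM, filterByExpr, all locations in 1 fit, fragment as a block between classes). The location-by-class terms had no fragment block. The script was tested on simulated data. All 9 members are named, the 3 other pathway genes with the smallest p per test and the 3 genes most like each member. Furthermore, members, lists and tests were chosen with earlier results of these data known. Alternatives were DESeq2 1.42.0, RLE scaling, no low-count filter, other cell limits, a resolution of 1, marker-list classes, clustering with the Notch genes, thinning to 5000 UMIs, subtraction of RNA from other wells, leaving out cells with both keratins, a replicate block and leaving out each fragment. RNA from other wells was estimated from fibroblast markers in epithelial cells and from keratins in fibroblasts. Gene positions are GENCODE's on GRCm38.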

Additional observations from a re-analysis of the deposited data

Results flagged for a closer look

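In 6 of 63 groups of 4 to 6 fragments, 1 fragment stood apart from the rest of its group, where chance flags about 1 in 20 groups. *Notch1* did so most often: 157 CPM in ER- luminal-like cells of nipple fragment 23 (68 UMIs in 12 cells, the other nipple fragments at 0 to 16.0), 85.9 CPM in basal-like cells of TEB fragment 34 (26 UMIs in 12 cells, others at 29.0 to 49.6), and 124 CPM in fibroblast-like cells of nipple fragment 22 (120 UMIs in 31 cells, others at 20.5 to 35.9). *Notch2* stood at 58.0 CPM in ER+ cells of TEB fragment 31, where 63 of 99 UMIs lay in 1 cell and the others ran from 1.2 to 18.4. *Notch3* stood at 64.8 CPM in ER+ cells of duct fragment 51 (64 UMIs in 27 cells, others at 10.7 to 26.4). *Lfng* was low, at 1.78 CPM, in ER+ cells of duct fragment 61 (2 UMIs in 25 cells, others at 7.09 to 9.52). *Hes1* varied with location differently in ER+ and ER- luminal-like cells over 30 sums, by the test of the location-by-class term (edgeR adjusted p = 0.00012), a term added after the data were seen.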

How the results depend on the processing

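No called difference of a Notch gene reversed: over 21 called differences and 605 alternatives, 579 kept call and direction and 26 kept the direction only. Most lost calls were those of *Lfng* between nipple and TEB basal cells and of *Hey1* between basal and ER+ cells. Counts of called Notch genes that moved by 1.5 times or more come first. Across locations in basal cells the 2 became 1 (*Jag1*) with at least 10 cells per sum, with thinned cells and without cells of both keratins. Without those cells, between duct and TEB the 1 became 0 and between nipple and TEB the 3 became 1. *Hes1* made the 0 into 1 across locations in ER- cells (a UMI minimum of 10000, no filter, thinning, other wells subtracted) and in fibroblasts (at least 10 cells, no filter, thinning), and between duct and TEB in ER+ cells (marker-list classes, at least 10 cells, thinning) and ER- cells (DESeq2, no filter, thinning, other wells subtracted). Between basal and ER+ cells, and between basal and ER- cells, the 6 became 3 (*Dll1*, *Jag1* and *Hes1*) with thinned cells, where 5 could be tested. Between ER+ and ER- cells the 1 became 3 with DESeq2, 2 with RLE size factors and 0 without the fragment block, where *Lfng* was not among the 6 tested. For the location-by-class terms, basal and ER+ became 1 with thinned cells, basal and ER- became 2 with marker-list classes and 1 with no filter, and ER+ and ER- became 0 with at least 10 cells. The cause was not tested in any of these, except that fewer genes were tested after thinning. Smaller moves were from 2 to 3 across locations in basal cells with DESeq2 (*Lfng* added), from 3 to 2 between nipple and TEB in basal cells (*Lfng* lost with a UMI minimum of 10000, marker-list classes, at least 10 cells, no filter, thinning or other wells subtracted), and from 6 to 5 between basal and ER+ cells (*Hey1* lost with at least 10 cells, DESeq2 or no filter). Without the fragment block the 6 became 4 in both basal contrasts, and between fibroblasts and epithelium the 3 became 4 (*Dll1* added) with DESeq2, a UMI minimum of 10000, up to 10% ERCC RNA or other wells subtracted.

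Leaving out 1 fragment gave a range of 1 to 2 across locations in basal cells (1 without duct 51, nipple 21, nipple 23, TEB 31, TEB 33, TEB 42 or TEB 43, where *Dll1* was lost), 1 to 1 in ER+ cells, 0 to 1 in ER- cells (*Hes1* called without duct 61 or nipple 23) and 0 to 1 in fibroblasts (*Hes1* called without duct 32, duct 62 or TEB 42). Between duct and TEB it gave 1 to 2 in basal cells (*Dll1* added without duct 61 or TEB 34), 0 to 1 in ER+ cells (without nipple 22) and 0 to 1 in ER- cells (without duct 61 or nipple 22). Between nipple and TEB in basal cells it gave 1 to 3 (1 without nipple 21). It gave 5 to 6 between basal and ER+, 6 to 6 between basal and ER-, 1 to 2 between ER+ and ER- (*Jag1* added without duct 31, nipple 21 or TEB 32) and 3 to 4 between fibroblasts and epithelium, and 0 to 1 for the location-by-class term of basal and ER+ cells (*Jag1* without duct 32 or TEB 34).

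Duct and TEB share the label numbers 31 and 32, and the labels do not say what the numbers mark. Same-numbered fragments did not deviate together (correlation of deviations -0.00823 to 0.0445). Such values cannot show whether the fragments share a mouse or a day. With a replicate block, between duct and TEB, 1 Notch gene was called in basal cells (*Jag1*, 1.96) and 1 in ER+ cells (*Hes1*), while calls over all genes went from 760 to 260 and from 144 to 274. The duct and TEB difference in that fit rests on the fragments numbered 31 and 32 alone. Fragments with other numbers add nothing to it, and almost no replication was left to measure the spread. These calls are therefore a weak check. The block could not be fitted in ER- cells.

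Counts over all genes across locations moved more than those of the members: in basal cells from 1504 to 508 without cells of both keratins and to 708 with thinning, in ER+ cells from 488 to 746 with DESeq2 and to 287 with thinning, in ER- cells from 234 to 400 with DESeq2 and to 98 with at least 10 cells, and in fibroblasts from 144 to 680 with at least 10 cells and to 78 without nipple 21. The fit without regression in scaling gave no basal sums for the 3 locations. Depth limits the ligand genes *Dll1* and *Jag2* and *Lfng* in luminal cells, *Notch3* in basal cells and *Hey1* in every class, where few UMIs were counted.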
